A study of Mus musculus with 4 samples.

Results

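The NIMA-related kinases are a family of serine/threonine protein kinases, named after the mitotic kinase NIMA of the mould Aspergillus nidulans. The 10 family members with a row in the deposited gene table (Nek1 to Nek9 and Nek11) were taken by their gene symbols from 18471 genes, whatever their values. All 10 passed the filter on low counts, which 17300 genes passed. The libraries were made from retinas of mouse embryos at embryonic day 19. A group of 2 libraries was labelled wild-type. The other group, of 2 libraries labelled Foxn3KO, came from the mutant strain C57BL/6NJ-Foxn3em1(IMPC)Bay/Mmnc, which lacks exon 3 of Foxn3, a gene for a forkhead transcription factor. The labels speak of retinas of individual genotyped embryos but do not name the embryo behind each library, so p-values measure the spread between these samples. The question, from the title of the series, is how a transcriptional network with Foxn3 bears on primary cilia of the developing retina.

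Family members divide their work between the centrosome, which organises the mitotic spindle, and the cilium, which grows from a centriole once a cell has left mitosis. NEK2 loosens the linker between the 2 centrosomes before mitosis, and NEK9, activated by the mitotic kinase PLK1, switches on NEK6 and NEK7, which act on spindle kinesin and on centrosome separation. NEK1, NEK4 and NEK8 are ciliary: mutations of Nek1 and Nek8 cause cystic kidneys in mice, NEK8 sits in the inversin compartment of the ciliary shaft, and NEK4 binds the RPGR-interacting proteins of the ciliary base. NEK3, NEK5 and NEK11 were put in a group of other roles. NEK11 takes part in the G2 checkpoint after DNA damage, and NEK5 has been tied to the centrosome.

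Some facts of the whole series bear on what follows. Total counts ran from 22543531 to 29360129 per library, so that 3 counts equalled 0.103 to 0.134 CPM (counts scaled to a common library size with TMM factors). Foxn3 itself was higher in the libraries labelled Foxn3KO (98.7 ± 1.55 against 143.7 ± 0.108 CPM, SD, n = 2 each; edgeR quasi-likelihood, adjusted p = 7.83e-08), and gene counts do not resolve exon 3, so each direction below rests on the labels. Wild-type replicate 1 stood apart by sex-linked transcripts: Xist had 83073 counts there and 9 to 19 in the other 3 libraries. The 16 retinal markers, among them Pax6, Rax and Crx, summed to 4045 to 4275 CPM in all 4 libraries. Of all tested genes, 3795 (21.9%) had a Benjamini-Hochberg adjusted p under 0.05, 2123 of them (12.3%) with a higher and 1672 (9.66%) with a lower level under the label Foxn3KO. Without Foxn3KO replicate 1 or 2 the calls were 2330 or 2323. Such genes are said below to have risen, fallen or passed the test.

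Nek2, Nek4, Nek5 and Nek11 rose in the Foxn3KO libraries, and no member fell. These are 4 of 10 members, beside 21.9% of all tested genes. The rises differed in size: Nek5 and Nek11 went from at most 18 reads to at least 228 reads a library, Nek4 rose by 50.4% and Nek2 by 28.4%. The CPM of the groups did not overlap for 6 members (the same 4, with Nek7 and Nek8 lower), or 6 of 10, beside 60.4% of all tested genes. The median log2 fold change of the 10 members was 0.06, against -0.0047 over all genes.

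The 250 bases before the start of the 4 genes that rose are shown because these genes moved in 1 direction. They come from RefSeq on build GRCm38.p6, and all 4 are printed on the strand of the gene. Capitals mark matches to the motifs given next.

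Nek2 promoter: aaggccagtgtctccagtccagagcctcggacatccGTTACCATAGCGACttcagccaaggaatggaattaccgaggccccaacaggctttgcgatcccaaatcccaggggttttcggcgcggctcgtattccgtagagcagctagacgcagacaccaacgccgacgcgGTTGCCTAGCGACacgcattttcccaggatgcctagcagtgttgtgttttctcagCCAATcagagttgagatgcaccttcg
Nek4 promoter: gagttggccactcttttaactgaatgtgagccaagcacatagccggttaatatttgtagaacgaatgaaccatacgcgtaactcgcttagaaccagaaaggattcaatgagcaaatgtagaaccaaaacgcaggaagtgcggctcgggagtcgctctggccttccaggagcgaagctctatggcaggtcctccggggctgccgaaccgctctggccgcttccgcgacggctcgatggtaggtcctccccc
Nek5 promoter: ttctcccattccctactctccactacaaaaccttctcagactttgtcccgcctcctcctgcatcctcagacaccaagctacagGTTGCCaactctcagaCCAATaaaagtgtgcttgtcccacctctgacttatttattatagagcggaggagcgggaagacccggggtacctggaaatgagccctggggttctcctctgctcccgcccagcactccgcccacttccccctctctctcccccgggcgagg
Nek11 promoter: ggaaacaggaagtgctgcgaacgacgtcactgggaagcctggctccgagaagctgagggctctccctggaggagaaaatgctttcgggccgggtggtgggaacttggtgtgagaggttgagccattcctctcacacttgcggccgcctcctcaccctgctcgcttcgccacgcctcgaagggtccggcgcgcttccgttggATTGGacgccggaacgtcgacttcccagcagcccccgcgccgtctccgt

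These stretches lie at chr1:191821223-191821472 (plus strand, Nek2), chr14:30951127-30951376 (plus strand, Nek4), chr8:22125068-22125317 (minus strand, Nek5) and chr9:105395288-105395537 (minus strand, Nek11). The search covered 250 bases before and 50 bases after the start, on both strands. The RefSeq table held such windows for 9 of the members (10 windows, since Nek6 has 2) and none for Nek1. Motifs searched were the X-box of the RFX factors, which drive many ciliary genes, with at most 1 mismatch; its parts GTTGCC and GTTACC, which can lie within an X-box; the forkhead motif GTAAACA; the cell cycle homology elements TTTGAA and TTCGAA; and the CCAAT box, CCAAT.

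Nek2 was the only member with an X-box match, and had 2 of them: GTTACCATAGCGAC at 214 to 201 bases before the start and GTTGCCTAGCGAC at 81 to 69 bases before it. Of 32851 RefSeq promoter windows of the same length, 11.3% held such a match. In Nek5, GTTGCC lay 167 to 162 bases before the start and CCAAT 151 to 147 bases before it, while Nek11 had CCAAT on the other strand at 49 to 45 bases. Nek4 had no match to any of these motifs. GTTGCC was in 3 member windows (Nek2, Nek3, Nek5; 12.5% of all promoters), GTTACC in 2 (Nek2, Nek6; 7.21%), TTTGAA in 2 (Nek3, Nek8; 17.9%), CCAAT in 4 (Nek2, Nek5, Nek6, Nek11; 37.4%), GTAAACA in 1 (Nek7, after the start; 3.65%) and TTCGAA in 0 (1.56% of all promoters). Letters that match a motif describe the sequence and are not evidence of a bound site.

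Among the mitotic members, Nek2 (ENSMUSG00000026622) had 2106 and 2251 counts in the wild-type libraries and 3170 and 2386 in the Foxn3KO libraries. On the CPM scale this was 84.9 and 82.8 against 109 and 107 CPM, or 83.9 ± 1.47 against 107.7 ± 1.64 CPM (SD, n = 2 each). Both Foxn3KO libraries lay above both wild-type libraries, by far more than the spread within either group. The log2 fold change was 0.36 (SE 0.049, 95% interval 0.26 to 0.46; edgeR quasi-likelihood, Benjamini-Hochberg adjusted p = 2.68e-05).

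Nek9 (ENSMUSG00000034290), the kinase upstream of NEK6 and NEK7, had the highest count of the family, with 3166 and 3294 counts in wild-type and 3625 and 2818 in Foxn3KO libraries. Its CPM were 128, 121, 124 and 126 in the same order, so the groups overlapped. The log2 fold change of 0.01 had a 95% interval of -0.09 to 0.11 (edgeR adjusted p = 0.930), and its sign turned under total count scaling (-0.01) and without wild-type replicate 2 (-0.03). A ratio of 2 genes within a library needs no scaling between libraries. Within each library, log2 of Nek2 over Nek9 was -0.59 and -0.55 in wild-type and -0.19 and -0.24 in Foxn3KO libraries, 2 groups that did not overlap.

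Nek6 (ENSMUSG00000026749), whose product acts on the spindle kinesin Kif11, had 323 and 385 counts in wild-type and 372 and 313 in Foxn3KO libraries. At 13.0 and 14.2 against 12.8 and 14.0 CPM the groups overlapped (log2 fold change -0.03, 95% interval -0.24 to 0.19; edgeR adjusted p = 0.889). The sign of the Nek6 difference turned without wild-type replicate 2 (0.03) or without Foxn3KO replicate 1 (0.04).

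Nek7 (ENSMUSG00000026393), the close paralogue of Nek6 that also licenses the NLRP3 inflammasome, had 64.6 and 60.7 CPM in wild-type and 56.3 in both Foxn3KO libraries, from 1603, 1649, 1640 and 1260 counts. The groups did not overlap, and the log2 fold change was -0.15 (SE 0.056, 95% interval -0.27 to -0.04). With an edgeR adjusted p of 0.0586 it did not pass. Nek7 did pass with total count scaling (-0.175, adjusted p = 0.0325), with the replicate number as a term (-0.155, adjusted p = 0.0449) and without wild-type replicate 2 (-0.20, adjusted p = 0.00455). With DESeq2 its adjusted p was 0.211.

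**Figure D1:**
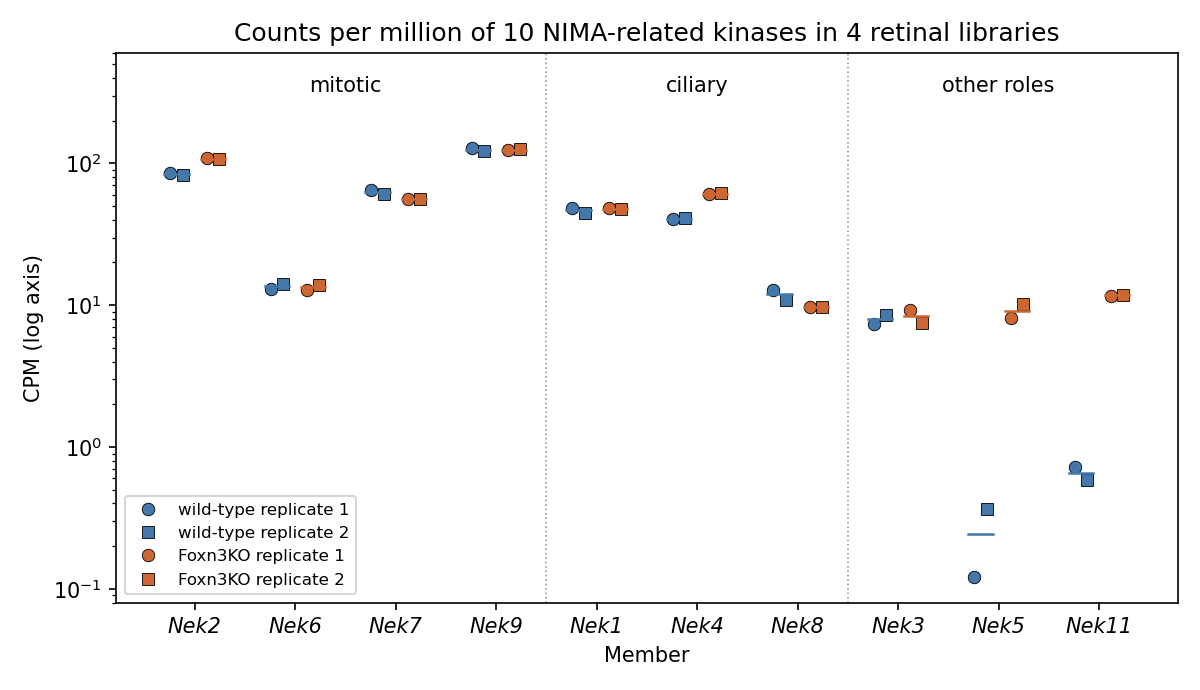
Scaled counts (CPM, log axis) of the 10 NIMA-related kinases in each library, grouped by role; circles and squares are replicates 1 and 2 and short lines the group means (n = 2). Nek5 and Nek11 lie below 1 CPM in both wild-type libraries and between 8.10 and 11.8 CPM in the Foxn3KO libraries, while Nek6, Nek9, Nek1 and Nek3 overlap between the groups.

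Of the ciliary members, Nek4 (ENSMUSG00000021918) had 998 and 1112 counts in wild-type and 1766 and 1377 in Foxn3KO libraries. The levels were 40.2 and 40.9 CPM against 60.6 and 61.5 CPM, or 40.6 ± 0.483 against 61.1 ± 0.593 CPM (SD, n = 2 each). Both Foxn3KO values were above both wild-type values. Nek4 had a log2 fold change of 0.59 (SE 0.057, 95% interval 0.47 to 0.71; edgeR quasi-likelihood, adjusted p = 4.40e-07).

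Nek1 (ENSMUSG00000031644) had 1197 and 1223 counts in wild-type and 1404 and 1060 in Foxn3KO libraries. Its levels of 48.3 and 45.01 against 48.2 and 47.3 CPM overlapped. The log2 fold change was 0.04 with a 95% interval of -0.09 to 0.16 (edgeR adjusted p = 0.736), and it was -0.01 without wild-type replicate 2. Set against each other within a library, log2 of Nek4 over Nek1 was -0.26 and -0.14 in wild-type and 0.33 and 0.38 in Foxn3KO libraries. In counts, which are not corrected for gene length, Nek4 thus stood below Nek1 in both wild-type libraries and above it in both Foxn3KO libraries.

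Nek8 (ENSMUSG00000017405) had 12.9 and 10.9 CPM in wild-type and 9.65 and 9.69 CPM in Foxn3KO libraries, from 319, 297, 281 and 217 counts. Although the groups did not overlap, the wild-type libraries differed from each other by more than wild-type replicate 2 differed from the Foxn3KO libraries. Its log2 fold change of -0.30 (SE 0.116, 95% interval -0.54 to -0.05) was the most negative of the family and did not pass (edgeR adjusted p = 0.0777). It passed without wild-type replicate 2 (-0.41, adjusted p = 0.0112), and without wild-type replicate 1 the value was -0.18 (adjusted p = 0.396).

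Median log2 fold changes were -0.01 over the 4 mitotic members and 0.04 over the 3 ciliary members, with 1 member past the test in each class. Members of both classes lay on both sides of 0, from -0.15 to 0.36 in the mitotic class and from -0.30 to 0.59 in the ciliary class. These medians moved by more than the spread between replicates when a library was left out: the mitotic median was 0.03 without Foxn3KO replicate 1 and the ciliary median 0.09 without wild-type replicate 1. No difference between the classes was tested.

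The group of other roles held the largest differences. Nek5 (ENSMUSG00000037738) had 3 and 10 counts in the wild-type libraries and 236 and 228 in the Foxn3KO libraries. This was 0.121 and 0.368 CPM against 8.10 and 10.2 CPM, or 0.245 ± 0.175 against 9.14 ± 1.47 CPM (SD, n = 2 each). Wild-type replicate 1 was thus at the limit of 3 counts. By edgeR quasi-likelihood the log2 fold change was 5.16 (SE 0.297, 95% interval 4.53 to 5.78, adjusted p = 3.56e-10). The size of this fold rests on 13 wild-type reads. As a ratio of summed counts per total it was 36.0 (exact 95% Clopper-Pearson interval 20.8 to 68.1, counting error only), and 74.5 (25.3 to 362) against wild-type replicate 1 alone or 24.5 (13.2 to 51.4) against wild-type replicate 2 alone.

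Nek11 (ENSMUSG00000035032) had 18 and 16 counts in wild-type and 338 and 265 in Foxn3KO libraries. Its levels were 0.726 and 0.589 against 11.6 and 11.8 CPM, or 0.657 ± 0.0968 against 11.7 ± 0.159 CPM (SD, n = 2 each). The wild-type libraries of Nek11 lay close together. Those of Nek5 lay further apart, but their exact 95% Poisson intervals overlapped (0.0249 to 0.354 and 0.176 to 0.677 CPM, counting error only). The log2 fold change was 4.15 (SE 0.195, 95% interval 3.74 to 4.56; edgeR quasi-likelihood, adjusted p = 1.89e-11), and the ratio of summed counts was 17.9 (exact 95% Clopper-Pearson interval 12.7 to 26.1). Of all tested genes, 47 had a larger log2 fold change than Nek11 and 19 a larger one than Nek5.

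Nek3 (ENSMUSG00000031478), the third gene of this group, had 183, 233, 270 and 169 counts, or 7.38 and 8.58 CPM in wild-type and 9.27 and 7.55 CPM in Foxn3KO libraries. The groups overlapped (log2 fold change 0.08, 95% interval -0.21 to 0.37; edgeR adjusted p = 0.728). The sign of the Nek3 difference turned without wild-type replicate 1 (-0.01) or without Foxn3KO replicate 1 (-0.08).

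**Figure D2:**
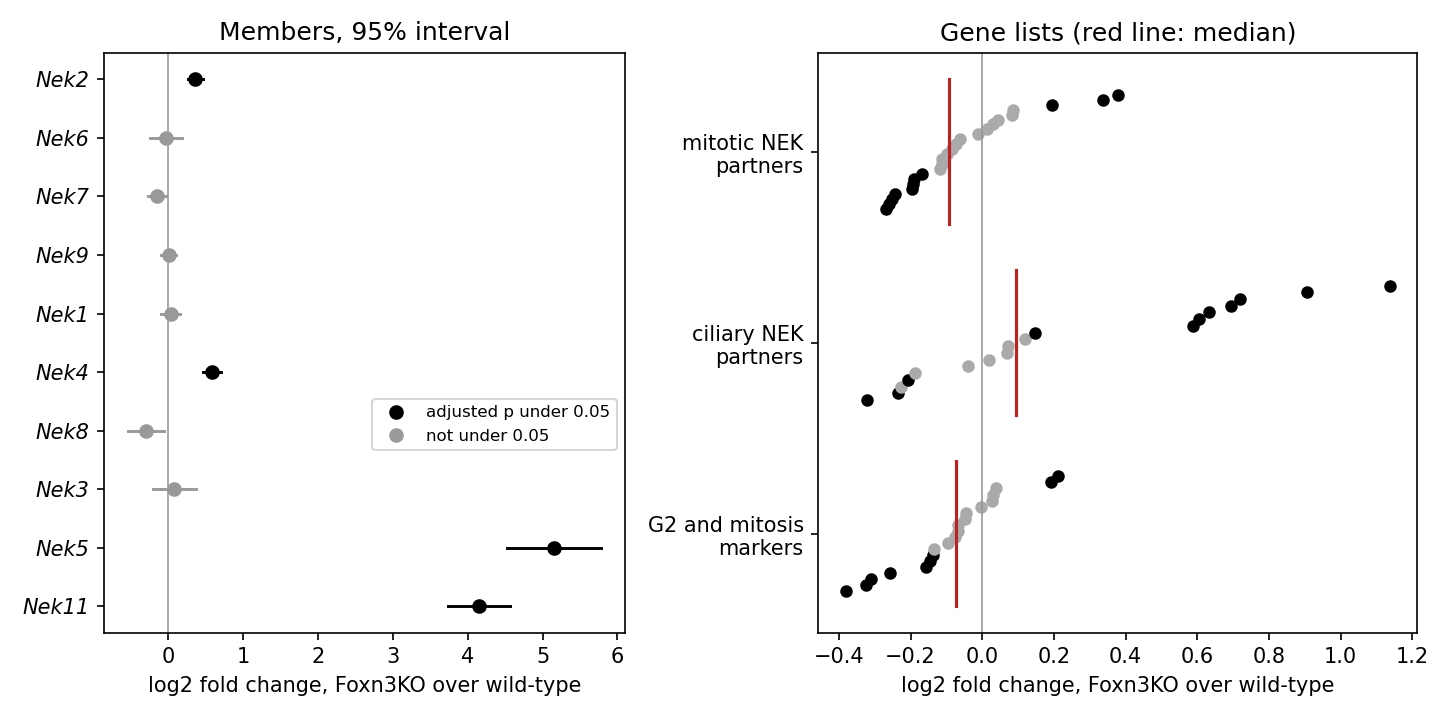
Left, log2 fold change of each member (Foxn3KO over wild-type) with its 95% interval from the edgeR fit; right, log2 fold changes of the genes in 3 lists with the list median as a red line, black where the adjusted p was under 0.05. Nek5 (5.16) and Nek11 (4.15) stand far from the other 8 members, and the ciliary partners reach 1.14 while the mitotic partners reach 0.38.

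Levels of different genes can be compared only per gene length, for which the authors' FPKM values (fragments scaled by library size and gene length) were used. The gene lengths behind these values ran from 2159 bases for Nek3 to 10746 bases for Nek6, and each was within 0.311% of the summed exon length in GENCODE; a length summed over all exons lowers the FPKM of a gene whose main transcript is short. In wild-type libraries the order by mean FPKM was Nek9 (23.0), Nek2 (18.5), Nek7 (8.46), Nek1 (5.89), Nek4 (4.54), Nek3 (3.69), Nek8 (2.27), Nek6 (1.26), Nek11 (0.154) and Nek5 (0.0841). No neighbours in this order overlapped between libraries, although Nek11 and Nek5 came close (0.138 in the lowest Nek11 library and 0.127 in the highest Nek5 library).

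In Foxn3KO libraries the order was Nek2 (23.8), Nek9 (23.2), Nek7 (7.61), Nek4 (6.83), Nek1 (6.04), Nek3 (3.90), Nek5 (3.15), Nek11 (2.75), Nek8 (1.85) and Nek6 (1.24). Here Nek3 and Nek5 overlapped, and the others did not overlap their neighbours. Nek2 and Nek9 came close (23.53 in the lowest Nek2 library and 23.3 in the highest Nek9 library), as did Nek5 and Nek11 (2.79 and 2.779). Nek5 moved from last to place 7 and Nek11 from place 9 to 8, both above Nek8 and Nek6. By FPKM, Nek2 and Nek9 changed places at the top, as did Nek4 and Nek1. In counts, which are not corrected for gene length, Nek9 stayed above Nek2 in both Foxn3KO libraries. The family summed to 68.9 and 66.8 FPKM in wild-type and 80.4 and 80.2 FPKM in Foxn3KO libraries. Without Nek5 and Nek11 the sums were 68.7 and 66.6 against 74.9 and 74.0 FPKM. The mitotic members made up 75.8% and 75.2% of the family's FPKM in wild-type and 69.5% in both Foxn3KO libraries. Their lower share went with a higher sum, 52.23 and 50.25 against 55.89 and 55.74 FPKM. The ciliary members made up 18.3% to 18.9% in all 4 libraries, with sums of 13.04 and 12.36 against 14.73 and 14.72 FPKM. Nek5 with Nek11 made up 0.307% and 0.396% against 6.86% and 7.83%.

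**Figure D3:**
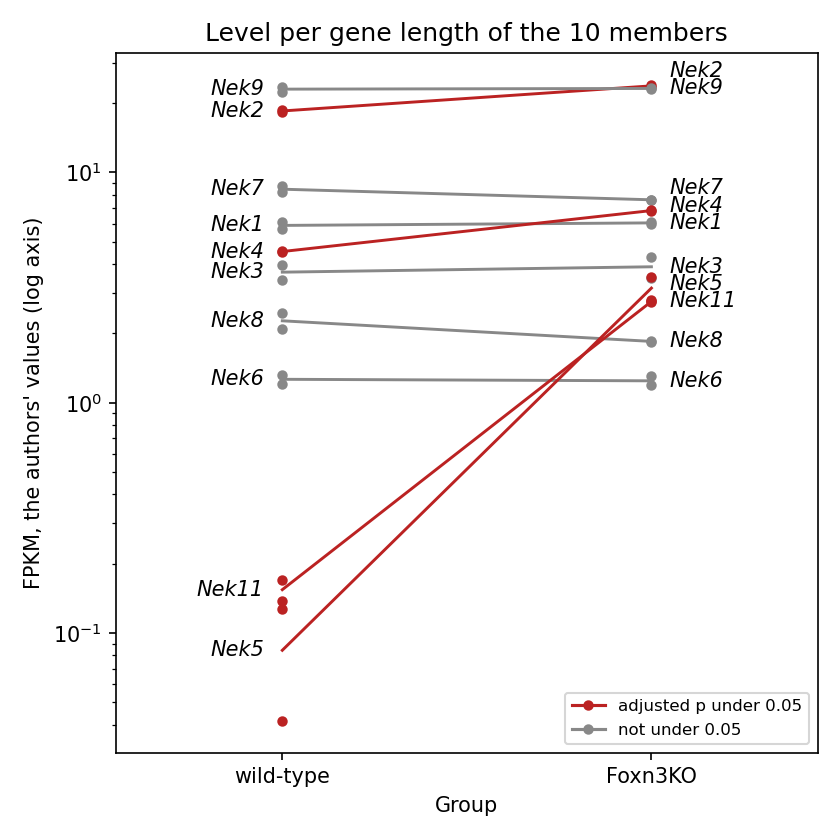
FPKM (the authors' values, log axis) of the 10 members in both groups; points are libraries and lines join the group means (n = 2), red where the edgeR adjusted p was under 0.05. Nek11 and Nek5 climb from 0.154 and 0.0841 FPKM to 2.75 and 3.15 FPKM, past Nek8 and Nek6, and Nek2 moves level with Nek9.

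Substrates and partners of the kinases were compared next. Of 24 mitotic partners, 3 rose and 8 fell (45.8%, beside 21.9% of all tested genes), with a median log2 fold change of -0.09. The 3 that rose were Crocc (rootletin, a centrosomal linker substrate of NEK2; 0.38, adjusted p = 1.73e-05), Dynll1 (a dynein light chain that binds NEK9; 0.34, adjusted p = 4.90e-05) and Plk1 (the activator of NEK9; 0.19, adjusted p = 0.0108), all by edgeR quasi-likelihood. Crocc also builds the ciliary rootlet of photoreceptors. Among those that fell were the spindle kinesin Kif11 (-0.24, adjusted p = 4.99e-04), the cohesin protector Sgo1 (-0.27), the NEK9 substrate Nedd1 (-0.26) and the spindle checkpoint gene Mad2l1 (-0.19). The main linker protein gene Cep250 (C-Nap1) had -0.07 and did not pass. How many of these 24 partners passed depended on the library left out, as did the calls over all genes. Their median log2 fold change then ranged from -0.0919 to -0.0842.

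Markers of G2 and mitosis were read beside Nek2, whose message is cell cycle regulated. Of 20 markers, 2 rose, Cenpf (0.21) and Ccnb2 (0.19), and 7 fell, led by Hmmr (-0.38), Bub1 (-0.33), Nusap1 (-0.26) and Ttk (-0.31). These are 9 of 20, beside 21.9% of all tested genes. Fewer of the 20 passed without either Foxn3KO library, as was so over all genes. The median log2 fold change of the 20 was -0.07, and -0.0722 or -0.0784 without Foxn3KO replicate 1 or 2. The proliferation marker Mki67 had a difference of -0.0031 (599 against 598 CPM, edgeR adjusted p = 0.969). Nek2 rose by 0.36, above all 20 markers. For the 7 markers that fell, fewer dividing cells and less RNA per dividing cell cannot be told apart in retinal tissue as a whole.

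Of 18 ciliary partners, 8 rose and 3 fell (61.1%, beside 21.9% of all tested genes), with a median log2 fold change of 0.10. Rpgr (the retinitis pigmentosa GTPase regulator of the photoreceptor connecting cilium) rose from 63.4 to 140 CPM (log2 fold change 1.14, edgeR adjusted p = 4.32e-12). Rpgrip1l, whose product binds NEK4 at the ciliary base, rose by 0.72. Kif3a, a motor subunit of intraflagellar transport, rose by 0.61. Also higher were Nphp4 (0.69), the NEK1 partner Cfap410 (0.63), the kinesin Kif24, a NEK2 substrate (0.59), and Ccp110 (0.15).

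Pkd2, the polycystin channel of the ciliary membrane, fell by 0.32 on the log2 scale. Rpgrip1, the photoreceptor paralogue of Rpgrip1l, fell by 0.21 and Wwtr1 (TAZ) by 0.23. Invs, Anks6 and Anks3, whose proteins work with NEK8 in or near the inversin compartment, did not pass: their log2 fold changes were 0.12 (edgeR adjusted p = 0.384), 0.07 (0.748) and 0.07 (0.421). Of the NEK4 partners, Rpgrip1l was higher and Rpgrip1 lower in the Foxn3KO libraries.

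The 2 members that rose most were set beside markers of other cells. All 10 measured markers of motile cilia rose (of 13 in the list; Rsph4a, Mcidas and Gmnc were not analysed here), from sums of 76.3 and 71.2 CPM in wild-type to 578 and 572 CPM in Foxn3KO libraries, with a median log2 fold change of 3.17. They were led by Foxj1, the forkhead regulator of motile ciliogenesis (8.01 to 176 CPM, log2 fold change 4.45, edgeR adjusted p = 1.61e-18), Tekt1 (3.64), Dnah9 (4.11) and Ccdc39 (2.03). Foxj1 shares with Nek11 that its wild-type libraries were alike, at 7.70 and 8.32 CPM.

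Lens markers moved with the groups too. All 8 measured members of the lens list (of 10) rose, and their sums were 7.58 and 59.99 CPM in wild-type and 263 and 260 CPM in Foxn3KO libraries. Within wild-type the alpha-crystallin gene Cryaa had 8 and 776 counts and the lens fibre gene Crygs 0 and 8, so that, as for Nek5 (3 and 10), wild-type replicate 1 was the lower library. For Nek11 it was not (18 and 16). The exact Poisson intervals of these Nek5 counts overlapped, as given above. Against wild-type replicate 2 alone, the Nek5 and Nek11 ratios of summed counts were 24.5 and 19.9. The part of lens tissue in the Nek5 and Nek11 values was not tested.

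Markers of other tissues around the retina were read in the same way. Sums of 7 pigment epithelium markers were 87.2 and 114 CPM in wild-type and 72.6 and 73.3 CPM in Foxn3KO libraries (3 fell). Of 6 tested choroid plexus markers 2 rose and 2 fell, with sums of 17.1 to 20.8 CPM in the 4 libraries. Of 7 vessel and mesenchyme markers 1 rose, and 5 had a positive difference (median log2 fold change 0.33). Their sums were 394 and 410 CPM in wild-type and 391 and 386 CPM in Foxn3KO libraries. Most of each sum was Kdr (359 and 373 against 354 and 347 CPM), so the sums say little about the other markers. None of 5 microglia markers passed, but all 5 had a positive difference (log2 fold changes 0.16 to 0.36), and their sums of 15.9 and 16.97 CPM in wild-type lay below those of 19.8 and 20.05 CPM in Foxn3KO libraries. Neither of the 2 tested muscle markers passed (sums 3.33 to 3.72 CPM, overlapping between the groups). Among 16 retinal markers 4 rose and 2 fell, with a median log2 fold change of 0.03.

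The genes whose levels ran most like those of Nek5 over the 4 libraries, by root mean square distance of centred log2 CPM, were Cryab (distance 0.152), Ttc29 (0.165) and Tcte1 (0.267). Cryab, a small heat shock protein abundant in lens, had 29, 74, 1431 and 1119 counts. Ttc29 and Tcte1, an axonemal and a dynein regulatory complex gene, had 12, 29, 576 and 473 and 1, 6, 231 and 168 counts. For Nek8 the nearest genes were Fancb (0.00912), Lysmd3 (0.0146) and ENSMUSG00000121482 (0.0155).

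Neighbouring genes were compared because Nek5 and Nek3 lie side by side on chromosome 8, on the same strand and with 0 shared exon bases in GENCODE. Nek5 rose by 5.16 and Nek3 had 0.08, so that counts of Nek5 per count of Nek3 went from 0.0164 and 0.0429 in wild-type to 0.874 and 1.35 in Foxn3KO libraries. Alg11, on the other side of Nek5, fell by 0.17 (edgeR adjusted p = 0.0425), and Ckap2, beyond Nek3, had -0.12 (adjusted p = 0.114).

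Nek11 overlaps Aste1 on the opposite strand of chromosome 9, with 133 exon bases in common out of 4246 for Nek11. Aste1 rose by 0.60 (337, 369, 574 and 479 counts, edgeR adjusted p = 9.77e-05). Atp2c1, the next gene at higher coordinates, had 0.04 (edgeR adjusted p = 0.624). The kit keeps the strand, but whether the counting used it is not given in the sources used here, so reads of the shared bases could have been counted for either gene.

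Nek9, which did not pass the test, lies on chromosome 12 beside Zc2hc1c, which rose by 3.04 (42, 44, 422 and 285 counts; edgeR adjusted p = 8.22e-11), and beside Tmed10, which rose by 0.28 (adjusted p = 3.80e-04). Spcs1, beside Nek4, rose by 0.17 (adjusted p = 0.0193). The measured neighbours of Nek1 (Clcn3, Sh3rf1), Nek2 (1700034H15Rik), Nek6 (Gm13588, Psmb7) and Nek8 (Traf4, Tlcd1) did not pass, and those of Nek7 were not analysed here.

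**Figure D4:**
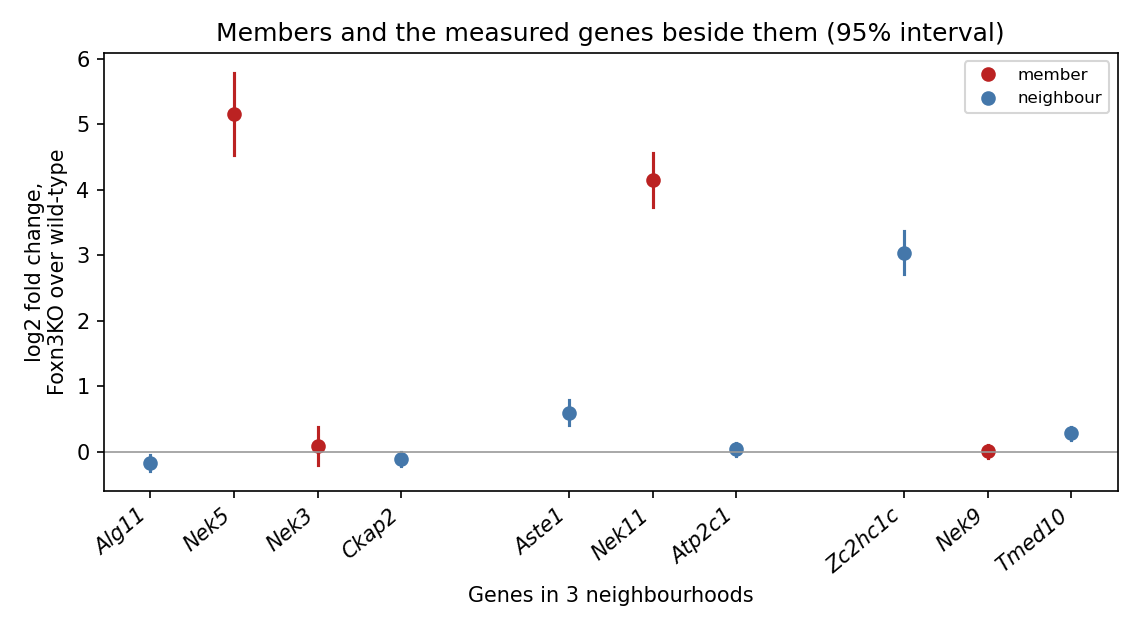
Log2 fold change (Foxn3KO over wild-type) with its 95% interval from the edgeR fit, in 3 neighbourhoods. Red marks 4 members, of which Nek5 and Nek3 lie side by side, and blue the measured genes beside or overlapping them. Nek5 (5.16) stands between Alg11 (-0.17) and Nek3 (0.08), and Nek9 (0.01) next to Zc2hc1c (3.04). Nek11 (4.15) is drawn between Aste1 (0.60), which overlaps it, and Atp2c1 (0.04), the next gene at higher coordinates.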

How the data were processed

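Total RNA of mouse retinas at embryonic day 19 was sequenced in 4 strand-keeping libraries (2 wild-type, 2 Foxn3KO) with molecular identifiers, per the labels' protocols. The authors deposited 1 table with raw read counts per gene and library. It also holds FPKM values by the authors, used here only to compare levels between members, and a mean signal per gene that was not used further. Of the authors' own comparison, the deposited log2 fold change and p-value (raw and adjusted) were read only for the members. Build mm39 and DESeq2 are named in the submitters' processing notes; aligner, counter, and use of strand or identifiers are not given in the sources used here. Every gene in the table has a sum of at least 16 counts.

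A repeated gene identifier was dropped, filterByExpr kept 17300 of 18471 genes, and genotype was fitted alone to TMM-scaled counts by the two-sided quasi-likelihood test of edgeR 4.0.16 (edgeR 4 fit; R 4.3.3). P-values were adjusted by Benjamini and Hochberg's method across the 17300 genes, and an adjusted p under 0.05 counted as passing. The procedure was tested on simulated data. Promoters came from RefSeq (GRCm38.p6), neighbours from RefSeq and exons from GENCODE; gene coordinates on mm39 are not given. Intervals on counts cover counting error only.

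Named were all members, Foxn3, Foxj1, at most 4 called genes per list and direction with the smallest p, the neighbours, and the 3 genes nearest to Nek5 and Nek8; further list genes (such as Cep250, Mki67, other ciliary partners that rose, NEK8 partners and the lens genes) and Xist were named after their values were seen. Some genes of the lists are not reported here by name. Members and lists were chosen with earlier results of these data known. Other settings tried were DESeq2 1.42.0, voom in limma 3.58.1, the earlier edgeR fit, a block for the replicate number, scaling by RLE or by total counts, no filter or a minimum of 10 counts in each library, and fits with 1 library removed. Figures were drawn with matplotlib 3.10.9.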

Additional observations from a re-analysis of the deposited data

How the results depend on the processing

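The 4 members that rose did so under every alternative that kept them: Nek2 from 0.34 to 0.38, Nek4 from 0.57 to 0.60, Nek11 from 4.0 to 4.30 and Nek5 from 4.6 to 6.16 on the log2 scale. Requiring at least 10 counts in every library removed Nek5 by construction, so that 3 of 9 members passed, beside 24.1% of all genes tested in that setting. Total count scaling turned Nek9 to -0.0123 and gave 48.2% of calls as higher in place of 55.9%, its all-gene median being -0.03. DESeq2 called 2437 genes in place of 3795; the cause was not tested.

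With a library left out, its group has 1 sample, assumed to vary like the other group. All-gene calls then ranged from 2323 to 5068 (2330 and 2323 without a Foxn3KO library), mitotic partners from 4 to 14, and G2 and mitosis markers from 5 to 13 (5 without either Foxn3KO library). The mitotic median ranged from -0.0425 to 0.0282 and the ciliary one from -0.0134 to 0.0886. Signs changed for Nek1 (-0.0134 to 0.0886), Nek3 (-0.0807 to 0.218), Nek6 (-0.0895 to 0.0398) and Nek9 (-0.0290 to 0.0468). Over the members, leaving out a library kept 32 values on their side of the threshold and in their direction, reversed 6 and brought 2 past it; the other alternatives gave 76, 1 and 2.

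The differences between replicates 1 and 2 did not correlate between the groups (correlation -0.00825 over 17300 genes). Counting error also enters these differences, so this cannot show whether samples with the same number were handled together. With the replicate block 4222 genes were called in place of 3795, and of the members only Nek7 changed its call. Depth limits the wild-type level of Nek5, at 3 and 10 counts.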

Other observations

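In the authors' deposited table, the members with an adjusted p under 0.05 were the same 4: Nek2 (log2 fold change 0.35, adjusted p = 9.21e-07), Nek4 (0.57, 5.44e-11), Nek5 (5.11, 8.37e-27) and Nek11 (4.12, 1.83e-37). Nek7 (-0.14, adjusted p = 0.211) and Nek8 (-0.23, adjusted p = 0.273) of the authors' deposited table did not pass.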
